A study of Mus musculus with 45 samples.

Results

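The Magea genes are the mouse members of the MAGE-A family of cancer-testis genes. They were taken as every row named Magea1 to Magea8 or Magea10, and 8 of the 9 names were found among 55401 genes: Magea1, Magea2, Magea3, Magea4, Magea5, Magea6, Magea8 and Magea10. No row was named Magea7. The 2 pseudogenes of similar name, Magea7-ps and Magea9-ps, had 0 reads in all 45 libraries. The family was selected on its measured values, since its members stood out by their fold change in earlier results of the 7 day (7 d) and 15 d dTAG comparisons, so its values there are given as a description with no test.

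MAGE proteins share a conserved MAGE homology domain, through which they bind RING-type E3 ubiquitin ligases and alter their activity or targets. Type I genes (MAGE-A, MAGE-B and MAGE-C) lie on the X chromosome, are expressed mainly in male germ cells and are silent in most other adult tissues. They are often re-expressed in tumors, and their silencing is known to involve DNA methylation and repressive chromatin. EHMT2 (G9a) is a histone methyltransferase that, with EHMT1, places H3K9me2, a mark of silent chromatin.

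RNA was sequenced from mouse embryonic stem cells (mESCs) in 15 groups of 3 libraries. EHMT2-dTAG mESCs (C57BL/6J x 129S1 background) carry a degron tag and an mCherry reporter at the end of both Ehmt2 alleles, so that dTAG-13 triggers loss of the protein. Clones E2-17, E2-20 and E2-K71 of these cells, grown in serum and LIF, received DMSO or dTAG for 24 h, 7 d or 15 d, and a Recovery group received dTAG for 7 d and was then grown without it for 8 d. EHMT2-dTAG cells with a MERVL-GFP reporter were sorted after 72 h of DMSO or dTAG into GFP+ cells, called 2-cell-like cells (2CLCs), and GFP- cells, called mESCs. WTJ1 mESCs (WT) and DPPA4KO mESCs (KO), in which Dppa4 was inactivated with CRISPR/Cas9, received DMSO or UNC0638, an inhibitor of the EHMT1 and EHMT2 enzymes, for 48 h. The same EHMT2-dTAG allele is carried by the DMSO controls of the first 3 experiments.

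Values are read counts normalized for library size within each experiment, and levels are compared across groups of 1 experiment only. For the EHMT2-dTAG experiments the deposit gives group means, from which the whole reads of each of the 33 libraries were recovered. These libraries could not be tied to a clone and are named the deepest, middle and shallowest library of their group. Assigned reads per library ranged from 8399885 to 12710949 in the Dppa4 experiment, and genes that could be split by library held 9671164 to 15807517 reads in the 24 h and 7 d experiment, 10076156 to 17230804 in the 15 d experiment and 4963853 to 10920908 in the sorted one. Ehmt2 mRNA, which the degron does not target, had a mean of 609 normalized counts in dTAG and 616 in DMSO at 24 h. Dppa4 was at 0 in all 6 KO libraries and between 700 and 920 normalized counts in the 6 WT libraries.

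All 8 genes lie on chromosome X (GRCm38, GENCODE models) in 2 groups that are 82.5 Mb apart. The GENCODE release used for positions, exon lengths and shared sequence is earlier than the one on which reads were counted. Magea4 (72222017 to 72222964) and Magea10 (72381870 to 72386858) form a pair that spans 165 kb. Magea6 (154924012 to 154935987), Magea3 (154948543 to 154949505), Magea8 (154985775 to 154995850), Magea2 (155027201 to 155093666), Magea5 (155053061 to 155063145) and Magea1 (155088686 to 155089793) lie within 170 kb of each other. The model of Magea2 spans Magea5 and Magea1, with no shared exon base.

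The sequences differ in how well reads can tell the genes apart. No stretch of 100 bases in Magea4 or Magea10 recurs in another member, whereas such stretches make up 64.1% of those in Magea1, 44.1% in Magea2, 24.6% in Magea5, 22.6% in Magea3, 21.4% in Magea8 and 16.0% in Magea6. Magea1 and Magea2 share most with each other, at 59.2% of the stretches in Magea1. No stretch of that length was shared with any other gene. Because a read with several places was put at a single random one, the split of reads within the group of 6 is uncertain. By these exact matches between annotated transcripts, Magea4, Magea10 and the sum of the 6 share no stretch with each other or other genes. Near matches and copies elsewhere in the genome were not searched.

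The regions before the RefSeq start sites are shown for Magea8, Magea2, Magea5 and Magea10. Each has 300 bases from RefSeq (GRCm38.p6), with 250 before the start and 50 after it. Every CG, the site of DNA methylation, is in capitals.
Magea8, chrX:154995801-154996100, minus strand: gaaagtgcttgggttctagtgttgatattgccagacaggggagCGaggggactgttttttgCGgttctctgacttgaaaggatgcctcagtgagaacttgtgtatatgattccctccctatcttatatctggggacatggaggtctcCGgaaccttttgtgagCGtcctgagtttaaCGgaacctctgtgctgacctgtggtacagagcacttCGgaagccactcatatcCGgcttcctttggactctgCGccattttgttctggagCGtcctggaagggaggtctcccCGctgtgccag
Magea2, chrX:155033243-155033542, minus strand: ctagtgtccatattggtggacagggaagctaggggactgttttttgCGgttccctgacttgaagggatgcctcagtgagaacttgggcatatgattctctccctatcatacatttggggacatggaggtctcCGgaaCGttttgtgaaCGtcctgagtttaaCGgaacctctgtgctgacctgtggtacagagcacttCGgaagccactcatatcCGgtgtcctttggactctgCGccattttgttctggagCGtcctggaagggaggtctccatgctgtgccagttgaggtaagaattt
Magea5, chrX:155061504-155061803, minus strand: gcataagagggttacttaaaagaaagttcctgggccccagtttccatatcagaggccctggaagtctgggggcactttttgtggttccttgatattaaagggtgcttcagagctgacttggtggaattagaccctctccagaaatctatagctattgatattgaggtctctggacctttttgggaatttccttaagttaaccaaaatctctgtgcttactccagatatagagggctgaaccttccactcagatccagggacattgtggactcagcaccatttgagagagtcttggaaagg
Magea10, chrX:72386809-72387108, minus strand: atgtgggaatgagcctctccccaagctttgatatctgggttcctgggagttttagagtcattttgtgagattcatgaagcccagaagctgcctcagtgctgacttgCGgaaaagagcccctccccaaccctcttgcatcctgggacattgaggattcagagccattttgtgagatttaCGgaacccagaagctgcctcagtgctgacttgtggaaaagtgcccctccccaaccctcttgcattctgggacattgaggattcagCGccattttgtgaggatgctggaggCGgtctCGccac
Magea8 and Magea2 were alike at 83.8% of aligned positions and Magea3 and Magea1 at 85.4%, and the other pairs were alike at 47.3% to 59.1%. The windows of Magea8 and Magea2 hold 10 and 9 CG, Magea10 holds 5, Magea4 holds 2, Magea6 and Magea1 hold 1 and Magea3 and Magea5 hold 0, with a median of 7 in 32851 windows of all genes. The ETS motif CGGAAG was searched on both strands and occurs once in Magea8, at base -37 from the start, and once in Magea2, at base -52, and in none of the other 6 windows. It is present in 16.9% of all windows. The E-box CACGTG and the E2F motif TCCCGC, found in 7.15% and 20.0% of all windows, occur in none of the 8. For Magea2, Magea3 and Magea1 no GENCODE transcript begins at the RefSeq start used here. The GENCODE models of Magea4 and Magea3 begin at the start codon. For Magea5 and Magea6 the RefSeq start is that of a GENCODE transcript, but the gene models reach further upstream. The windows of these genes may thus not be promoters.

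The Magea genes were close to undetected in bulk DMSO cultures and had more reads at the longer dTAG times, which were normalized apart at 15 d. Summed over the 8 genes, the 3 DMSO libraries at 24 h had 0, 3 and 2 reads and the 3 dTAG libraries had 4, 6 and 9, ordered from the deepest to the shallowest library. At 7 d the DMSO libraries had 2, 0 and 0 reads and the dTAG libraries had 148, 105 and 35. At 15 d the DMSO libraries had 0 reads and the dTAG libraries had 288, 64 and 116. Every dTAG library exceeded every DMSO library of its time. In normalized counts the sum was 6.49 against 1.80 at 24 h, 97.7 against 0.483 at 7 d and 148 against 0 at 15 d. The ratio was 202 at 7 d (95% counting interval 48.2 to 1458, since DMSO had 2 reads), and at 15 d dTAG was at least 145.7-fold higher than the floor of 3 reads over the DMSO group.

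**Figure D1:**
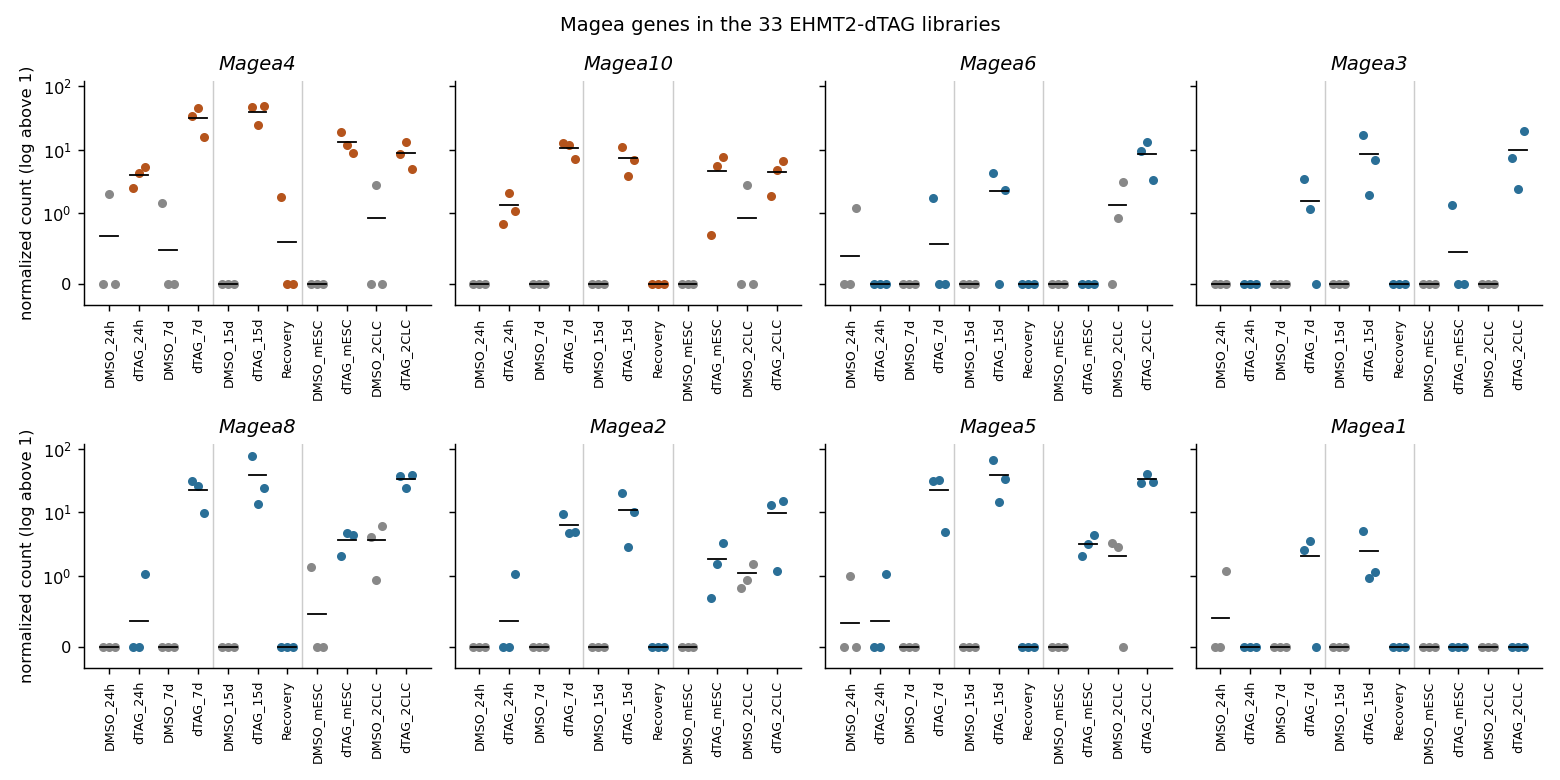
Normalized count of each Magea gene (y axis, linear to 1 and logarithmic above) in each of the 33 EHMT2-dTAG libraries, in 11 groups (x axis), with a line at the group mean, DMSO in grey, dTAG and Recovery in orange for Magea4 and Magea10 and in blue for the other 6 genes. Vertical lines separate experiments that were normalized separately, and Magea4 reached means of 31.6 at 7 d and 39.6 at 15 d where Magea8 reached 22.2 and 38.1.

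Magea4 carried the signal at 24 h. It had 3, 4 and 5 reads in the dTAG libraries and 0, 2 and 0 in DMSO, a mean of 4.06 against 0.673 normalized counts. Magea10 had 1, 2 and 1 reads against 0 in each DMSO library. For these 2 members the dTAG libraries all lay above the DMSO libraries, which 12.8% of all tested genes also showed in that direction. Magea4, the only member to pass the filter on low counts there, had a log2 fold change of 1.76 (SE 0.60) that missed the threshold (limma, adjusted p = 0.11), where 2.74% of 18781 genes were called. Without the middle DMSO library, which holds both of its DMSO reads, the adjusted p was 0.021. The 6 genes of the other group had 3 reads in all in dTAG and 3 in DMSO, both at the floor.

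At 7 d reads appeared for all 8 genes. Magea4 had 40, 38 and 13 reads in the dTAG libraries and 2, 0 and 0 in DMSO, with a mean of 31.6 against 0.483 normalized counts. Magea5 had 37, 27 and 4 reads, Magea8 had 36, 22 and 8, and both were at 0 in every DMSO library, which makes them at least 26.4-fold and 25.6-fold higher. Magea10 had 15, 10 and 6 reads and Magea2 had 11, 4 and 4, again with none in DMSO. These 5 genes lay above DMSO in every library, a count that the choice of the family for this comparison favoured and that 19.8% of tested genes reached. Magea1 (3, 3 and 0 reads), Magea3 (4, 1 and 0) and Magea6 (2, 0 and 0) were lowest and had no reads in the shallowest library.

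Levels of different genes were compared per length. The alignment settings given by the study allowed no spliced reads, so reads across exon junctions would be lost. Magea4 has 1 exon block and Magea5, Magea8 and Magea10 have 4 each, so their order per kb is uncertain. Per kb of exon, the mean at 7 d was 33.4 normalized counts for Magea4, 13.9 for Magea5, 13.5 for Magea8 and 5.84 for Magea10. Below them came Magea2 at 3.65, Magea1 at 1.84, Magea3 at 1.59 and Magea6 at 0.470, and the libraries of each gene overlapped with those of the next gene in this order. The shallowest dTAG library was lowest for Magea4, Magea8, Magea5 and Magea10, with a sum of 42.2 normalized counts over the 8 genes against 126.6 and 124.5 in the others.

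After 15 d the 6 genes of the larger group had more reads than the pair. Magea8 had 89, 14 and 21 reads, Magea5 had 78, 15 and 29, and Magea4 had 54, 25 and 42. Magea2 followed with 23, 3 and 9 reads, Magea3 with 20, 2 and 6, Magea10 with 13, 4 and 6, Magea1 with 6, 1 and 1, and Magea6 with 5, 0 and 2. As all DMSO libraries were at 0, 7 of the 8 genes lay above DMSO in every library, where 11% of tested genes did. Only 3 of the 8 passed the filter on low counts, so the 2 sets are unlike. Against the floor, Magea4 was at least 39.1-fold, Magea5 at least 37.8-fold and Magea8 at least 37.6-fold higher. The libraries differed widely: the sum over the 8 genes was 248 normalized counts in the deepest library, 61.9 in the middle one and 133 in the shallowest, and the share of Magea3, with 20 of its 28 reads in the deepest, rested mostly on that library.

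The Recovery libraries held almost no Magea reads. Of the 8 genes, Magea4 had 2 reads in the deepest library and 0 in the others, and the remaining 7 genes had none. So 0 of 8 genes lay above the 15 d DMSO group in every library, where 5.45% of tested genes did. The sum of 0.592 normalized counts was at or under the floor, as was DMSO at 15 d, so no fold is given. The sum stood at 148 in cells kept in dTAG and at 0.592 in cells grown without it for the last 8 d, and feeder fibroblast markers, given with the other marker lists, were lowest in Recovery of the 3 groups of that experiment.

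The pair and the group of 6 took different shares of the reads. The 6 genes made up 15.8% of Magea reads in dTAG at 24 h (3 of 19, exact 95% binomial interval 3.38% to 39.6%), 57.6% at 7 d (51.7% to 63.4%) and 69.2% at 15 d (64.8% to 73.4%). By library the share ran from 45.7% to 62.8% at 7 d and from 54.7% to 76.7% at 15 d, so these 2 times overlapped. All intervals and floors here cover counting error only.

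**Figure D2:**
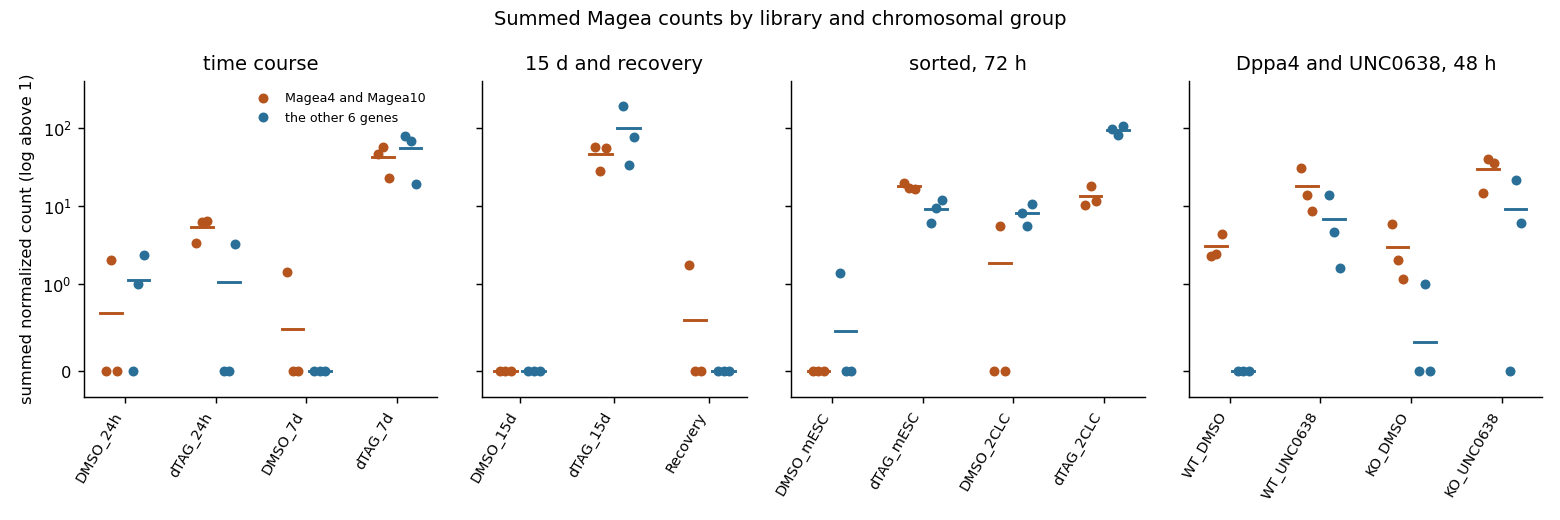
Summed normalized counts (y axis, linear to 1 and logarithmic above) of Magea4 and Magea10 (orange) and of the other 6 Magea genes (blue) in each library of the 15 groups (x axis), with a line at the group mean. In sorted cells under dTAG the pair stood at 17.9 in mESCs and 13.4 in 2CLCs, and the other 6 genes at 9.24 and 94.7.

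Sorting asked in which of the 2 cell states the reads arose. Summed over the 8 genes, DMSO mESCs had 2, 0 and 0 reads, DMSO 2CLCs had 10, 12 and 7, dTAG mESCs had 38, 34 and 26, and dTAG 2CLCs had 114, 82 and 71. In normalized counts the means were 0.466, 10.1, 27.1 and 108, and no 2 of these groups overlapped. The reads were thus present in GFP- cells after dTAG as well as in 2CLCs. The 2 sets of genes differed in where they were found, as follows.

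Magea4 and Magea10 had reads in both cell states after dTAG, and no difference between these states was called for Magea4. Magea4 had 28, 15 and 8 reads in dTAG mESCs and 9, 11 and 3 in dTAG 2CLCs, against 0 in DMSO mESCs and 0, 3 and 0 in DMSO 2CLCs. It rose with dTAG in mESCs by a log2 fold change of 3.77 (SE 0.65, limma adjusted p = 0.0020), in a comparison where 4.6% of 18868 genes were called. Magea4 passed the filter on low counts only through dTAG libraries, which favours such a call. In 2CLCs its log2 fold change was 2.58 (SE 0.65, adjusted p = 0.062), which missed the threshold but passed it without the middle DMSO 2CLC library, which holds all 3 of its DMSO reads (adjusted p = 0.043). Between 2CLCs and mESCs in dTAG, Magea4 differed by -0.55 (SE 0.65, adjusted p = 0.57), with a 95% interval of -1.94 to 0.85. Magea10 had 1, 7 and 7 reads in dTAG mESCs and 2, 4 and 4 in dTAG 2CLCs, means of 4.63 and 4.46 normalized counts, and was too low for the test.

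Magea8 and Magea5 were higher in 2CLCs. Magea8 had 40, 20 and 23 reads in dTAG 2CLCs, 3, 6 and 4 in dTAG mESCs, 5, 1 and 4 in DMSO 2CLCs and 2, 0 and 0 in DMSO mESCs. Magea5 had 31, 33 and 18 reads in dTAG 2CLCs, 3, 4 and 4 in dTAG mESCs, 4, 3 and 0 in DMSO 2CLCs and 0 in DMSO mESCs. In dTAG, 2CLCs exceeded mESCs by a log2 fold change of 2.89 for Magea8 (SE 0.61, adjusted p = 0.0023) and 3.04 for Magea5 (SE 0.61, adjusted p = 0.0016), with no overlap between libraries. These were 2 of 3 members tested, in a comparison that called 18.6% of genes. Both genes passed the filter on low counts only through their dTAG 2CLC libraries, which favours calls of a higher level there. In DMSO the difference between the 2 states, with 22.7% of genes called, was 1.63 for Magea8 (SE 0.61, adjusted p = 0.0491) and 1.34 for Magea5 (SE 0.61, adjusted p = 0.10). The call on Magea8 in DMSO was lost on leaving out any 1 of 9 of the 12 libraries, all but the deepest mESC library of either treatment and the middle DMSO 2CLC library (adjusted p = 0.058 to 0.18) and with edgeR (0.070) or DESeq2 (0.080), both of which called Magea5 instead (0.020 in each).

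Within 2CLCs, dTAG raised both genes further. Magea8 rose by a log2 fold change of 3.02 (SE 0.61, adjusted p = 0.025) and Magea5 by 3.73 (SE 0.61, adjusted p = 0.0088), where 1.34% of genes were called. The filter favoured these calls too, as both genes passed it only through the dTAG 2CLC libraries. Leaving out any dTAG 2CLC library, or the deepest or middle DMSO 2CLC library, ended the call on Magea8 (adjusted p = 0.050 to 0.096), and leaving out the middle dTAG 2CLC library ended that on Magea5 (adjusted p = 0.055). In mESCs the log2 fold changes were 1.77 for Magea8 (SE 0.61, adjusted p = 0.13) and 2.03 for Magea5 (SE 0.61, adjusted p = 0.075), neither past the threshold, though for both every dTAG library lay above every DMSO one. Whether the dTAG effect differed between the 2 states was tested directly, and it did not pass for Magea4 (-1.19, SE 0.92, adjusted p = 0.86), Magea8 (1.26, SE 0.86, adjusted p = 0.82) or Magea5 (1.70, SE 0.86, adjusted p = 0.66), where 0.975% of genes were called.

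**Figure D3:**
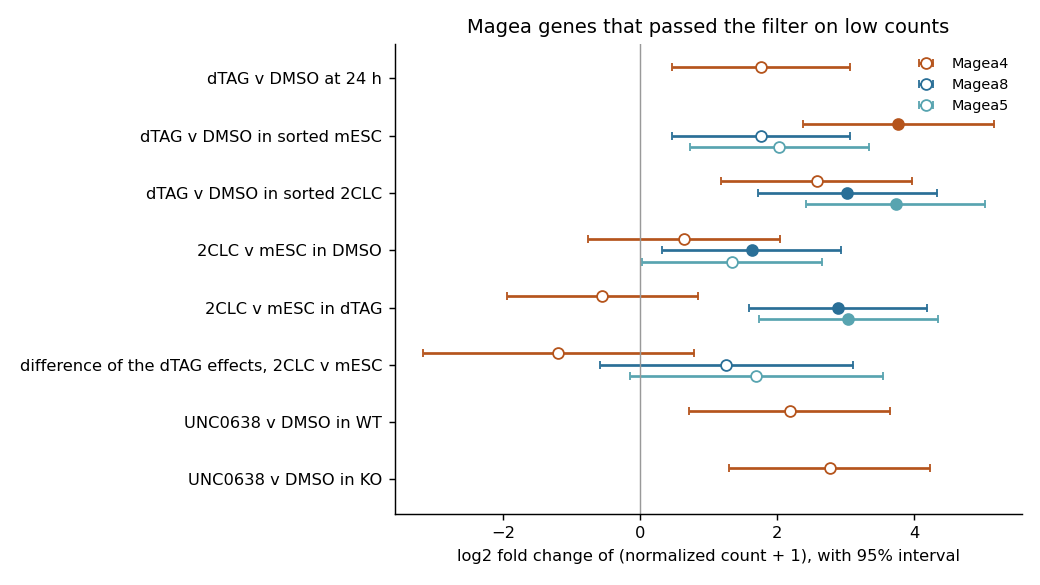
Log2 fold change of normalized count + 1 (x axis) with its 95% interval for the members that passed the filter on low counts, in the 8 comparisons listed on the y axis, with filled circles for adjusted p under 0.05 and an absolute log2 fold change of at least 1. Magea4 (orange) was called in sorted mESCs at 3.77, and Magea8 and Magea5 (blues) in sorted 2CLCs at 3.02 and 3.73. These genes passed the filter only through dTAG or UNC0638 libraries, which favours calls of a higher level there.

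The remaining members of the group of 6 were low outside dTAG 2CLCs. Magea6 had 10, 11 and 2 reads in dTAG 2CLCs and none in mESCs of either treatment. Magea3 had 8, 2 and 12 reads in dTAG 2CLCs and 2, 0 and 0 in dTAG mESCs, a ratio of 21.8 (95% counting interval 3.95 to 141). Magea2 had 14, 1 and 9 reads in dTAG 2CLCs and 1, 2 and 3 in dTAG mESCs, and the 2 groups overlapped. Magea1 was at 0 in all 12 sorted libraries, which allows up to 3 reads per group. Counting all members, 5 of 8 lay above DMSO in every library in sorted mESCs and 5 of 8 in sorted 2CLCs, where 12.5% and 11.6% of tested genes did. In dTAG, 4 of 8 lay above mESCs in every 2CLC library, where 21.6% of genes did. These shares cover only genes that passed the filter on low counts, as 3 of the 8 members did, so the sets are unlike.

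Summed, the 6 genes were 10.3-fold higher in 2CLCs than in mESCs under dTAG (94.7 against 9.24 normalized counts), while the ratio for the pair was 0.749 (13.4 against 17.9). The 6 genes made up 32.7% of Magea reads in dTAG mESCs (95% interval 23.5% to 42.9%) and 87.6% in dTAG 2CLCs (83.1% to 91.3%). In DMSO 2CLCs they made up 79.3% of 29 reads (60.3% to 92.0%). By library the share was 23.7%, 35.3% and 42.3% in dTAG mESCs and 90.4%, 81.7% and 90.1% in dTAG 2CLCs, with no overlap.

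**Figure D4:**
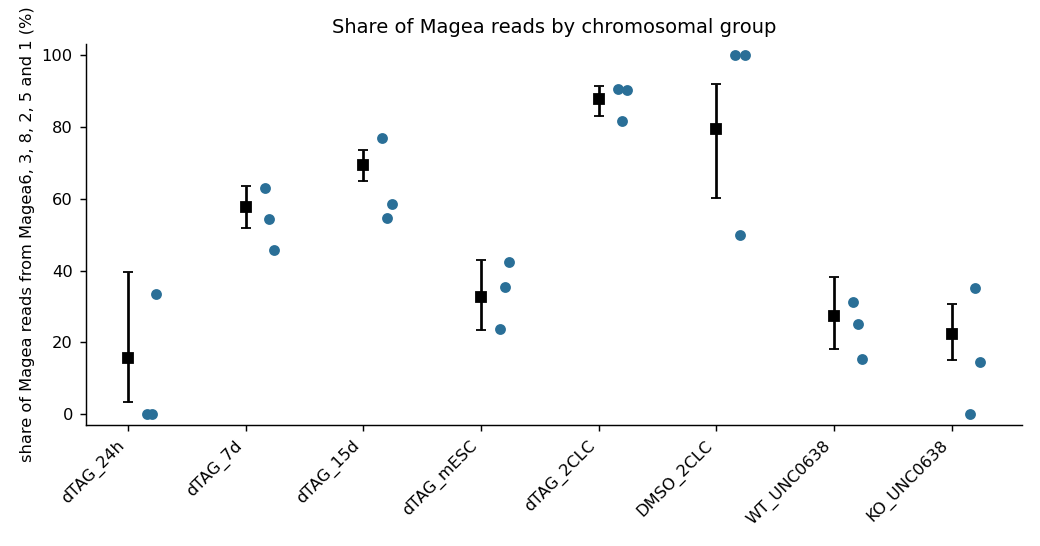
Share of Magea reads (y axis, percent) that came from the 6 genes other than Magea4 and Magea10 in 8 groups (x axis), as the pooled share with its exact 95% binomial interval (squares and bars) and the value in each library (circles). The dTAG 2CLCs stand at 87.6% and the dTAG mESCs at 32.7%.

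The summed 2-cell-like markers, 12 genes such as the Zscan4 family, were higher in dTAG than in DMSO in each comparison, as the Magea sum was. Their summed means were 276.8 normalized counts in DMSO and 3048 in dTAG at 24 h, 425.6 and 9597 at 7 d, 739.4 and 18448 at 15 d, and 1149 in Recovery. In sorted cells they were 1200 in DMSO mESCs, 12907 in dTAG mESCs, 205086 in DMSO 2CLCs and 313272 in dTAG 2CLCs. DMSO 2CLCs thus held a higher marker sum than dTAG mESCs and a lower Magea sum, 10.1 against 27.1. In a bulk culture, more cells of a type and more RNA per cell cannot be told apart, and the part of the 2CLCs in the bulk Magea reads was not tested. Feeder fibroblast markers (8 genes) moved in the same direction, with sums of 3018 in DMSO and 5074 in dTAG at 7 d and 709, 1322, 1372 and 2898 in DMSO mESCs, dTAG mESCs, DMSO 2CLCs and dTAG 2CLCs, with 0 of 6 tested genes called in bulk and 1 by dTAG in sorted 2CLCs, and 1 and 2 called higher in 2CLCs than in mESCs in DMSO and dTAG. At 15 d their sums were 4850 in DMSO, 6192 in dTAG and 1828 in Recovery. The 2CLCs were gated on GFP from a reporter carried by the EHMT2-dTAG line, and the mESCs were GFP-. Feeder marker sums were higher in 2CLCs than in mESCs under each treatment. Primitive endoderm markers (Gata6, Sox17 and Pdgfra) summed to 55.5, 86.0, 197 and 252 in DMSO mESCs, dTAG mESCs, DMSO 2CLCs and dTAG 2CLCs, and 3 of 3 were called higher in 2CLCs in DMSO and 2 of 3 in dTAG. The part of either cell type in the Magea reads was not tested.

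Other germ cell genes were not higher as a group in dTAG at 7 d or 15 d, but several were higher in 2CLCs than in mESCs. The sum of 12 germ cell markers, among them Ddx4, Dazl and Sycp3, was 1517 normalized counts in DMSO and 1052 in dTAG at 7 d and 1918 and 1879 at 15 d. Of 11 tested, 0 were called higher and 1 lower at 7 d, and 1 higher and 1 lower at 15 d, where 3.84% and 3.39% of all genes were called higher and 3.65% and 0.311% lower. Their median log2 fold changes were -0.34 and -0.10, against 0.01 and 0.00 over all genes. In sorted cells the sum was 1080 in mESCs and 1810 in 2CLCs in DMSO and 980 and 1583 in dTAG. Between these states 4 of 11 genes were called higher and 2 lower in DMSO, and 4 higher and 0 lower in dTAG, where 15.1% and 13% of all genes were called higher and 7.63% and 5.67% lower.

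The UNC0638 experiment asked for the same genes after inhibition of the enzymes, with and without DPPA4. In WT cells, Magea4 had 2, 2 and 3 reads in DMSO replicates 1 to 3 and 31, 14 and 11 in UNC0638, 2.47 ± 0.15 and 16.4 ± 9.69 normalized counts (SD, n = 3). In KO cells it had 6, 2 and 1 reads in DMSO and 16, 30 and 30 in UNC0638, 3.02 ± 2.50 and 24.4 ± 8.91 normalized counts (SD, n = 3). In both genotypes every UNC0638 library lay above every DMSO one. This held for 1 of the 8 genes in each, where 9.86% of tested genes did in WT and 8.88% in KO.

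The fit over all genes did not call Magea4 in either genotype. Its log2 fold change was 2.18 in WT (SE 0.69, limma adjusted p = 0.56) and 2.77 in KO (SE 0.69, adjusted p = 0.071), with raw p-values of 0.0060 and 0.00100. In WT, limma and edgeR called 0 of 17258 genes, 1504 had a raw p under 0.05, and DESeq2 called 14. In KO 0.464% of genes were called by limma, and Magea4 passed with DESeq2 (adjusted p = 0.021) or without KO_UNC0638 replicate 1 (adjusted p = 0.043). Between KO and WT, 4.43% of genes were called in DMSO and 3.29% in UNC0638. Magea4 did not differ between KO and WT past the threshold in DMSO (0.04, SE 0.69, 95% interval -1.43 to 1.50, adjusted p = 0.98) or in UNC0638 (0.62, SE 0.69, 95% interval -0.84 to 2.09, adjusted p = 0.66), and the difference of the UNC0638 effects was 0.58 (SE 0.98, 95% interval -1.49 to 2.66, adjusted p = 0.91).

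The other members gave few reads there. Magea10 had 4, 1 and 0 reads in WT and 0, 7 and 11 in KO under UNC0638, and 0, 0 and 2 in WT and none in KO under DMSO. Magea8 had 10, 0 and 2 reads in WT and 0, 14 and 7 in KO under UNC0638, and 1 read in 1 of 6 DMSO libraries. Magea5 had 5, 2 and 0 reads in WT and 0, 6 and 0 in KO under UNC0638, and none in DMSO. Magea2 had 3 reads and Magea6 1 read in WT under UNC0638, both with none in KO, and Magea3 and Magea1 were at 0 in all 12 libraries. Of all reads, the 6 genes made up 27.4% in WT (95% interval 18.2% to 38.2%) and 22.3% in KO (15.2% to 30.8%) under UNC0638.

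The 2-cell-like markers separated the genotypes where Magea4 did not. Their sum was 993 normalized counts in WT with DMSO (144 to 2323 over the 3 libraries) and 3794 with UNC0638 (1076 to 8846), but 0 and 1.16 in KO, where 12 and 11 of the 12 genes were listed at 0. Magea4 had 16, 30 and 30 reads in those KO libraries under UNC0638. Magea4 reads were thus present in cultures in which the 2-cell-like markers were at or near 0.

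Among the other MAGE genes, 18 were found and 11 could be tested. Called higher were 1 at 24 h, 2 at 7 d, 1 at 15 d, 2 in sorted mESCs and 0 in sorted 2CLCs under dTAG, with 0 called lower in these comparisons, where 2.18%, 3.84%, 3.39%, 4.08% and 1.12% of all genes were called higher and 0.559%, 3.65%, 0.311%, 0.519% and 0.212% lower. The 4 other MAGE genes named here were picked for the largest change at 7 d, which favours their 7 d fold changes and p-values. Mageb4, a type I gene of the MAGE-B group, went from 17.5 normalized counts in DMSO (12.3 to 20.8) to 61.0 in dTAG (53.9 to 72.3) at 7 d, a log2 fold change of 1.77 (SE 0.30, adjusted p = 0.0017). Mageb10-ps, a pseudogene, went from 11.2 (5.07 to 16.7) to 49.6 (33.2 to 65.0), by 2.13 (SE 0.43, adjusted p = 0.0044). Both were above 10 in every 24 h to 15 d DMSO group mean, unlike the Magea genes. Ndn, an imprinted type II MAGE gene, changed by 0.86 (SE 0.23, adjusted p = 0.022) and Mageb16 by 0.83 (SE 0.13, adjusted p = 0.00068), both under the fold threshold.

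Mageb4 and Mageb10-ps also rose in sorted mESCs, by 2.22 (SE 0.28, adjusted p = 0.00013) and 2.06 (SE 0.32, adjusted p = 0.00073). In 2CLCs they changed by 0.82 (SE 0.28, adjusted p = 0.15) and 0.63 (SE 0.32, adjusted p = 0.34). Between 2CLCs and mESCs, 6 of the 11 MAGE genes were called higher in DMSO, with a median log2 fold change of 1.11, and 3 in dTAG, with a median of 0.61, and 0 were called lower in either, against the shares of 15.1% and 13% given above. Mageb4 and Mageb10-ps were higher in DMSO 2CLCs by 1.95 (SE 0.28, adjusted p = 7.5e-05) and 2.03 (SE 0.32, adjusted p = 0.00015), and in dTAG differed by 0.56 (SE 0.28, adjusted p = 0.15) and 0.61 (SE 0.32, adjusted p = 0.16). Under UNC0638 Mageb10-ps stood at 14.7 normalized counts in WT (10.3 to 22.4) and 0.956 in KO (0.873 to 1.08), whereas Magea4 stood at 16.4 and 24.4. Its difference between genotypes under UNC0638 was -2.93 (SE 0.91, adjusted p = 0.079).

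The 6 genes for proteins known to work with MAGE proteins, Trim28, Trim27, Nsmce1, Nsmce4a, Pja1 and Usp7, gave 0 calls in any dTAG comparison against DMSO, among 5 tested in bulk and 6 in sorted cells, where 2.74%, 7.49%, 3.7%, 4.6% and 1.34% of genes were called at 24 h, 7 d, 15 d, in mESCs and in 2CLCs. Trim28, which encodes the ubiquitin ligase KAP1 and was too abundant to be split by library in bulk, differed by 0.24 in sorted mESCs (SE 0.15, adjusted p = 0.46). Pja1, a RING ubiquitin ligase gene, was lower in 2CLCs than in mESCs in DMSO by 1.09 on the log2 scale (SE 0.15, adjusted p = 4.8e-05), where 7.63% of genes were called lower.

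Neighbouring genes were read at 7 d, when the Magea genes were high. Of 44 genes within 500 kb of a member (19 around the pair and 25 around the group of 6), 18 were listed at 0 in every EHMT2-dTAG group and 18 reached a group mean of 5. Of 13 that could be tested at 7 d, 0 were called in either direction, where 7.49% of all genes were. With so few tested, this count does not set the neighbours apart from other genes. Gm650, a processed pseudogene 211 kb from the nearest member, had the largest change, from 0.571 (0 to 0.989) to 7.34 normalized counts (2.41 to 13.7), and was too low for the test, as was Gabra3, a GABA receptor subunit gene, at 0.242 and 1.99. Gm14723, a processed pseudogene, changed by 0.61 (SE 0.27, adjusted p = 0.14) and Prrg3, a membrane protein gene, by -0.58 (SE 0.21, adjusted p = 0.072).

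**Figure D5:**
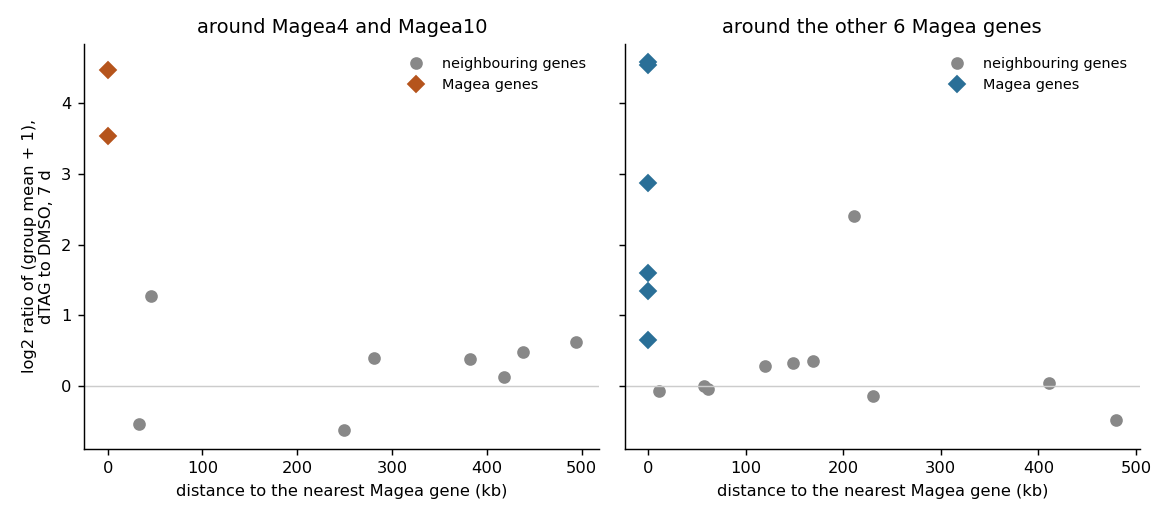
Log2 ratio of group means + 1 between dTAG and DMSO at 7 d (y axis) against distance to the nearest Magea gene in kb (x axis) for the neighbours whose highest group mean is at least 5 (circles) and for the Magea genes at 0 kb (diamonds), around the pair (left) and the group of 6 (right). Gm650, at 211 kb on the right, is the highest neighbour, and 0 of the 13 neighbours tested were called, where 7.49% of all genes were.

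The genes whose group means most resembled the Magea sum were 4930591A17Rik (Pearson correlation 0.980), Toporsl (0.979), Asz1 (0.978), Pde1c (0.974) and Pros1 (0.973). The measure was taken over the 11 EHMT2-dTAG group means, on a log2 scale centred within each experiment, among 24699 genes, and these groups share libraries and a common treatment. Asz1, a germ cell gene of the piRNA pathway, stood at 8.31 normalized counts in dTAG at 7 d (3.61 to 15.4) and 0.989 in DMSO (0 to 2.97), and at 13.0 in dTAG 2CLCs (8.43 to 18.3). Pde1c, a cyclic nucleotide phosphodiesterase gene, went from 3.67 (0.926 to 7.91) to 50.2 (38.6 to 65.8) at 7 d, and was at 0 in both WT groups and in KO under UNC0638. In the Dppa4 experiment, which the measure did not use, 4930591A17Rik, a long noncoding RNA gene, stood at 5.78 in DMSO and 28.7 in UNC0638 in WT and at 1.55 and 12.3 in KO, with log2 fold changes of 2.11 (SE 0.83, adjusted p = 0.56) and 2.66 (SE 0.83, adjusted p = 0.14). Pros1, which encodes the anticoagulant protein S, stood at 144 and 198 in WT and at 224 and 376 in KO (adjusted p = 0.59 and 0.22). Toporsl was at 0 and 9.71 in WT and at 0 in both KO groups. With Spearman's rank correlation only 1 of the 5 remained among the closest, Pde1c.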

How the data were processed

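Paired-end RNA-seq reads were trimmed by the authors with Trim Galore 0.6.7, aligned to mm10 with STAR 2.7.10, with a multiply mapping read kept at a single random place, counted with TEcounts on GENCODE vM25 and divided by DESeq2 1.34.0 size factors. The deposited values are this signal, per library for the Dppa4 experiment and as group means for the EHMT2-dTAG experiments. The deposited fold changes and p-values and the transposable element tables were not used.

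Whole reads were recovered from the values, for 100% of Dppa4 values within a relative tolerance of 1e-06. Each group mean was split into 3 whole-read libraries where only 1 solution existed. Averaging the known Dppa4 libraries and splitting them again returned 100% of the uniquely split genes correctly. Split genes held 60.9% to 86.3% of the normalized counts, so EHMT2-dTAG depths are understated.

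Tests used limma 3.58.1 (trend) on log2(normalized count + 1), after filterByExpr of edgeR 4.0.16, with Benjamini-Hochberg adjustment over all genes tested. A gene was called at an adjusted p under 0.05 and an absolute log2 fold change of at least 1, and fold changes on this scale understate the change of low genes. Each member tested passed the filter only through dTAG or UNC0638 libraries, which favours calls of a higher level in those groups. Shares of genes without overlap between libraries cover only genes that passed the filter, whereas the counts of members include those that failed it. The fit on split libraries was added after seeing the data, since only group means had been foreseen. The p-values measure the spread between these samples, which are 3 clones in bulk and Dppa4 groups and numbered replicates in sorted ones. Alternatives were edgeR, DESeq2 1.42.0, TMM scaling, other filters and pseudocounts, a replicate block and each library left out. In WT the deviations of same-numbered DMSO and UNC0638 libraries correlated at 0.246, 0.103 and 0.431, each best with its own number, so the numbers were taken to pair them. With the replicate block within genotype WT still gave 0 calls, and Magea4 an adjusted p of 0.37. The study's methods name 3 clonal lines for this experiment, and the sample titles tie no replicate number to a line. The fits were tested on simulated data. Named genes were all members, the 4 other MAGE genes and 4 neighbours with the largest change at 7 d, the MAGE partners and the 5 genes most like the Magea sum. The members, gene lists and rules were chosen with earlier results of these data known.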

Additional observations from a re-analysis of the deposited data

How the results depend on the processing

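Of the log2 fold changes of single Magea genes under the alternatives, 301 kept their direction and side of the threshold, 10 gained a call and 21 lost one, and none reversed. The cause of these changes was not tested. The summed Magea log2 ratio (of means + 1; no test was run on the sum) was 6.06 at 7 d, 7.66 with no pseudocount and 4.23 with 5. It was 7.22 at 15 d and 4.93 with a pseudocount of 5, 4.26 in sorted mESCs, 5.86 and 2.55 with 0 and 5 and 3.34 without Magea4, and 3.30 in sorted 2CLCs and 2.91 with 5. Leaving out each library in turn gave 5.83 to 6.63 at 7 d, 6.62 to 7.58 at 15 d, 4.05 to 4.81 in mESCs and 3.18 to 3.38 in 2CLCs. Of Magea genes called, sorted mESCs gave 1, 2 by DESeq2 or with a pseudocount of 0.25, 0 with a mean count of at least 10, and 1 to 2 on leaving out a library. Sorted 2CLCs gave 2, 1 with either the higher mean or a pseudocount of 0.25, and 0 to 2. Between 2CLCs and mESCs, DMSO gave 1, 0 with no filter, the higher mean or a pseudocount of 5, and 0 to 1, and dTAG gave 2, 4 with no filter, 1 with the higher mean, and 2 to 3. At 24 h the count was 0, and 0 to 1 on leaving out a library. These fits on split libraries were added after seeing the data.

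In the Dppa4 experiment UNC0638 called 0 genes in WT, 14 by DESeq2 and 0 to 1 on leaving out a replicate. In KO it called 80, 37 by edgeR, 285 by DESeq2 and 12 with no filter, and 2 (without KO_UNC0638 replicate 2) to 365 (without KO_UNC0638 replicate 1) on leaving out a replicate. Of Magea genes, KO gave 0, 1 by DESeq2 and 0 to 1. KO against WT gave 765 in DMSO (286 to 969) and 567 in UNC0638 (190 to 665, and 868 by DESeq2), and the difference of the UNC0638 effects 0 (0 to 1). With a replicate block the KO count was 172, and 155 with the replicate block within genotype, and the block moved no other count by over 1.5 times and changed no Magea call. In KO the same-numbered pairs correlated at 0.154, -0.0923 and 0.0129, so there the numbers were not taken to pair the samples. No paired analysis was possible for the EHMT2-dTAG experiments because their split libraries carry no replicate number. Of the 5 genes most like the Magea sum, 1 was shared with Spearman's correlation. Low reads limit the 24 h, DMSO and Dppa4 values, and a count of 0 allows up to 3 reads per group.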
